A study of Mus musculus with 39 samples.

Results

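NG Capture-C measures how often a captured restriction fragment, called the viewpoint, is joined to other DpnII fragments after crosslinking, digestion and ligation of chromatin. The fragments described here are those contacted by Ex and A, a pair of viewpoints that lie just outside the mouse α-globin self-interacting domain, on opposite sides of it. The members are all DpnII fragments between 31925000 and 32400000 on chromosome 11 (mm9), except those within 1 kb of any of the 5 viewpoints captured in the same libraries. This rule kept 1062 of the 1104 fragments of that window, out of 295448 on the chromosome. At least 1 read was seen on 1028 of them from Ex, on 1029 from A, and on 1026 from both. The 31 members without a read from either had a median length of 10 bp, against 300.5 bp for all members. No value of the interactions entered the choice of members.

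Interactions were compared between mouse foetal liver (MFL) erythroblasts and mouse embryonic stem (mES) cells. The MFL 30 h libraries are labelled C57Bl6 and wild type (WT), and come from foetal liver progenitors that were expanded in culture, depleted of Ter119-positive cells, sorted on CD44 and cell size, and differentiated for 30 h. The mES libraries are from E14, a WT embryonic stem cell line of the 129/Ola background. The labels attach the same note on BrdU during the last hours of culture to both groups, and with it the erythroblast culture text. Each group has 3 biological replicates. A second technical replicate exists for all 3 MFL replicates and for mES replicate 3, which gives 6 MFL and 4 mES libraries. Cell type, strain and culture cannot be told apart in this comparison. E14 is 1 line, so the spread between the mES replicates is the spread between samples of that line, and nothing states which replicates came from separate cultures.

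Depth differed strongly between the groups. In the first technical replicates Ex had 72325 to 106002 reporter reads in mES and 6889 to 16073 in MFL cells, and A had 99682 to 147604 and 6642 to 16025. A count of 3 reads corresponded to between 3.40 and 4.94 interactions from Ex in mES but to between 26.03 and 65.6 in MFL cells, and from A to between 2.38 and 3.49 and between 25.6 and 65.9. Interactions are given per 100000 interactions of the viewpoint on chromosome 11. That scaling matters because the share of reads on chromosome 11 was lower in MFL cells, from 64.5% to 72.4% against 77.4% to 85.2% from Ex and from 65.2% to 74.02% against 81.0% to 87.7% from A.

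Interphase chromosomes are folded into self-interacting domains, within which regulatory elements meet promoters more often than they meet sequence outside. Many domain edges carry binding sites for CTCF, a zinc-finger protein that stops the cohesin complex as it extrudes a loop of chromatin, and pairs of such sites facing each other tend to be held together. In erythroid cells the α-globin genes and their enhancers, which lie in introns of the neighbouring gene Nprl3, share such a domain, and CTCF sites flank it.

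The Ex viewpoint (chr11:32131942-32132755) lies in a coding exon of Mpg, which encodes a DNA glycosylase of base excision repair, and in an exon of Nprl3, which encodes a subunit of a regulator of mTORC1 signalling. Its centre is 4.70 kb outside the upstream edge of the domain (chr11:32137046-32200781). The A viewpoint (chr11:32204978-32205650) is intergenic, and its centre is 4.53 kb beyond the downstream edge, 73.0 kb from Ex. The members were divided among 5 intervals, namely a far upstream interval of 148.3 kb with 346 members, an upstream flank with 148, the domain with 150, a downstream flank with 129, and a far downstream interval of 135.5 kb with 289. Each flank has the length of the domain, 63.7 kb.

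The sequences below, from the plus strand of mm9, belong to CTCF sites named in the labels. Capitals mark matches to a core of the CTCF motif, spelled CCNNNAG followed directly by NNGGC, on either strand. The first is HS39_5, the CTCF site that lies just inside the upstream edge, and the second a part of the CTCF site in the downstream flank.
HS39_5, chr11:32137176-32137426: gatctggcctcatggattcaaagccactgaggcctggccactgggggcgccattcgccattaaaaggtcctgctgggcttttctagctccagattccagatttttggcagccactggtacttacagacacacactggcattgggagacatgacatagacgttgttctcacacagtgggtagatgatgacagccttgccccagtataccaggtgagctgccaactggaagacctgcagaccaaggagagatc
CTCF +44, chr11:32221297-32221446: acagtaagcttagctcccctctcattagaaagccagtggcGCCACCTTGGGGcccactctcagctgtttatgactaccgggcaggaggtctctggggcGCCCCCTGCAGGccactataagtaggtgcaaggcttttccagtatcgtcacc

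The next sequences belong to fragments of the opposite flank that were among the 5 with the highest mean in MFL cells. The first and second were contacted from Ex, and the others, which are parts of longer fragments around a motif match, from A. Fragments from Ex were picked for print by their short length, and those from A because they hold a match. None of the 5 from Ex held a match, nor did the A fragments of the 5 that are not printed. Of chromosome 11 fragments of like size, 18.1% and 9.64% held a match for the A contacts in the order printed.
Ex contact, chr11:32209597-32209828: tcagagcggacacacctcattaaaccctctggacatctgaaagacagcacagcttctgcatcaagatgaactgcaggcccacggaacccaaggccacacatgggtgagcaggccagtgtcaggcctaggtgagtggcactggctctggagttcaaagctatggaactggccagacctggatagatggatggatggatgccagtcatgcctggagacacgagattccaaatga
Ex contact, chr11:32217331-32217455: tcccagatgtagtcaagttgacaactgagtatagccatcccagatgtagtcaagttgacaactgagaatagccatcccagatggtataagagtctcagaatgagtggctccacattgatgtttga
A contact, chr11:32125407-32125556: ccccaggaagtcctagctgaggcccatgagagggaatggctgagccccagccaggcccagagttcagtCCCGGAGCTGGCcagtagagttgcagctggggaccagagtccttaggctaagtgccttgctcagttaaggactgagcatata
A contact, chr11:32136947-32137096: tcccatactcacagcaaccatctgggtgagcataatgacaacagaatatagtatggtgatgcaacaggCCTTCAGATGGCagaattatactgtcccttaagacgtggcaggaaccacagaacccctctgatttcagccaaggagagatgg

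A match to this core was found in 99 of the 1062 members (9.32%) and in 5.67% of all DpnII fragments of chromosome 11. Members with a match were longer, with a median of 601 bp against 276 bp. The shares were 14% in the domain, 10.1% in each flank, 6.94% far upstream and 8.997% far downstream. The CTCF +44 fragment held 2 matches, both on the minus strand, and the Ex viewpoint fragment held 1, on the minus strand. The fragments HS39_5, CTCF +48, R1, R2, Hba-1, Hba-2 and the A viewpoint held 0 matches, which says only that these letters were not found in them. A match is a description of the sequence and not a measured binding site.

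Both viewpoints contacted the flank on the other side of the domain more often in MFL erythroblasts than in mES cells, and contacted the domain between them and the far intervals less often. From Ex, the downstream flank held 4.44%, 4.08% and 4.77% of the chromosome 11 interactions in the mES replicates and 8.34%, 7.59% and 7.24% in the MFL replicates. From A, the upstream flank held 5.92%, 6.20% and 6.09% in mES and 9.30%, 10.5% and 10.8% in MFL cells. All 3 MFL values lay above all 3 mES values from either viewpoint. The log2 difference was 0.80 ± 0.09 (SE, n = 3 against 3) from Ex and 0.74 ± 0.07 from A. With 3 replicates against 3 there are 20 arrangements, so the two-sided exact permutation test used for every single value here cannot give a p below 0.1. That value was reached for both flanks (adjusted p = 0.111 over the 10 interval tests). The difference from A was 0.48 with the values as deposited. Ex and A were captured from the same libraries, so their values are given side by side and are not independent of each other.

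The domain itself moved the other way. From Ex it held 16.4%, 16.0% and 15.4% of interactions in mES and 13.4%, 14.8% and 14.6% in MFL cells, a log2 difference of -0.16 ± 0.05 (SE, n = 3 against 3). From A it held 16.4%, 16.5% and 15.1% against 12.8%, 13.7% and 12.6%, a log2 difference of -0.30 ± 0.06. The groups did not overlap from either viewpoint (exact permutation test, p = 0.1, adjusted p = 0.111 for both). The differences were larger with the values as deposited, -0.40 and -0.56, and with the second technical replicate only, where a replicate has one, the groups from Ex overlapped (log2 difference -0.16).

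The far intervals held less in MFL cells on both sides of the locus. From Ex the far upstream share was 6.24% ± 0.37 (SD, n = 3) in mES and 4.61% ± 0.30 in MFL cells, and the far downstream share was 3.71% ± 0.12 and 2.04% ± 0.30. From A the corresponding shares were 5.90% ± 0.38 and 3.90% ± 0.39 far upstream, and 6.12% ± 0.47 and 2.74% ± 0.44 far downstream. In all 4 cases every MFL replicate was below every mES replicate (exact permutation test, p = 0.1). The sum over the window hardly moved, with 61.0% in each group from Ex and 60.3% and 61.7% from A.

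Each viewpoint's own flank differed between the viewpoints in how it compared. From A, the downstream flank in which A lies rose in share from 26.2% ± 1.87 in mES to 31.8% ± 1.01 in MFL cells (SD, n = 3), without overlap. From Ex, its own upstream flank held 30.7% ± 1.46 and 32.4% ± 0.26, and the groups overlapped (exact permutation test, p = 0.3). With the values as deposited, which are relative to all chromosomes, the log2 difference of that flank from Ex turned from 0.08 to -0.16. On that scale the difference of the downstream flank from A fell from 0.28 to 0.013 and the groups overlapped, and with 5 kb left out around each viewpoint it was 0.54.

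**Figure D1:**
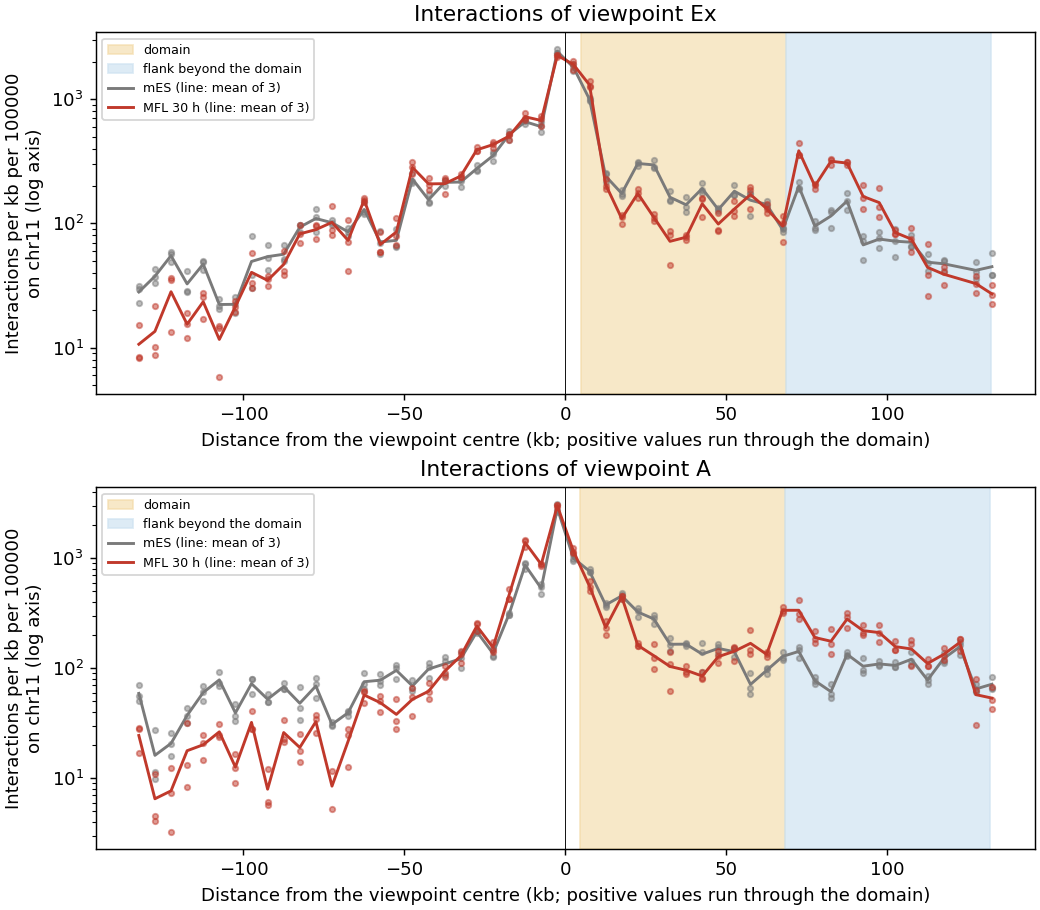
Interactions per kb from Ex (upper panel) and A (lower panel) in 5 kb steps against the distance from the viewpoint centre in kb, where positive distances run through the domain (shaded orange) into the opposite flank (shaded blue). Points are replicates and lines the means of 3 per group, on a log axis. From 70 to 100 kb the MFL line lies above the mES line in both panels, and from 20 to 40 kb below it.

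Interactions fall with distance along the chromosome, so the same distances were compared on both sides of a viewpoint. Between 20 and 30 kb toward the domain, the level from Ex was 316, 283 and 299 interactions per kb in mES and 134.5, 146 and 145 in MFL cells. Between 80 and 90 kb toward the domain, which is beyond its far edge, it was 126, 122 and 152 in mES and 318, 323 and 293 in MFL cells. The levels from Ex therefore crossed along the same direction, lower in MFL cells at the first distance and higher at the second, without overlap at either. Within the domain the MFL values were lower in every step of 10 kb from 10 to 50 kb, and the groups overlapped from 50 to 70 kb. Between 5 and 10 kb, just inside the near edge, they were higher, with 1239, 1393 and 1263 against 1027, 985 and 971.

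From A the levels also went from lower to higher in MFL cells, but crossed nearer to the viewpoint. Between 20 and 30 kb the level from A was 312, 330 and 273 interactions per kb in mES and 132, 167 and 143 in MFL cells. Between 60 and 70 kb, which includes the upstream edge of the domain, it was 122, 105 and 113 in mES and 243, 238 and 254 in MFL cells. The MFL values lay above the mES values in every step of 10 kb from 50 to 100 kb from A, and from 70 to 100 kb from Ex. Beyond 100 kb the groups overlapped in the steps up to 120 kb from both viewpoints, with means of 102 and 122.8 from A and 48.1 and 41.7 from Ex between 110 and 120 kb.

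On the outer side the viewpoints differed. From A, the level away from the domain was lower in all MFL replicates in each step of 10 kb from 40 to 140 kb, for example 62.2 ± 7.70 in mES and 19.8 ± 3.00 interactions per kb in MFL cells (SD, n = 3) between 90 and 100 kb. From Ex the groups overlapped in each step from 50 to 100 kb and separated beyond 100 kb, with 46.1 ± 4.87 and 20.7 ± 9.02 between 120 and 130 kb.

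For a comparison per viewpoint, the interactions per kb toward the domain were divided by those away from it at the same distances. A near band spans the distances at which the domain lies, and a far band those at which the opposite flank lies. In the far band the log2 ratio from Ex was 0.47, 0.43 and 0.46 in mES and 1.71, 1.66 and 1.72 in MFL cells. From A it was 1.01, 1.21 and 0.92 in mES and 3.18, 3.22 and 3.10 in MFL cells. The direction toward the domain was thus favoured in both groups and more so in MFL cells, by 1.24 ± 0.02 from Ex and 2.12 ± 0.09 from A on the log2 scale (SE, n = 3 against 3, exact permutation test, p = 0.1, adjusted p = 0.1 over 4 tests).

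Both sides contributed to these ratios. In the far band the inward level from Ex was 77.4 ± 6.08 interactions per kb in mES and 134.9 ± 9.79 in MFL cells (SD, n = 3), and the outward level was 56.4 ± 3.88 and 41.7 ± 3.19. From A the inward level was 102 ± 2.37 and 171 ± 13.2, and the outward level was 49.5 ± 4.65 and 19.1 ± 1.96. The larger log2 ratio from A in MFL cells came with an outward level that was lower than that of Ex, beside an inward level that was higher.

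In the near band the ratio was lower in MFL cells. From Ex it was -0.10, -0.08 and -0.07 in mES and -0.54, -0.33 and -0.42 in MFL cells. From A it was 0.12, 0.30 and 0.05 in mES and -0.59, -0.47 and -0.51 in MFL cells. From A the near contacts favoured the domain side in mES and the outer side in MFL cells, and no replicate of one group reached the other. The log2 differences were -0.35 ± 0.06 from Ex and -0.68 ± 0.08 from A (SE, n = 3 against 3, exact permutation test, p = 0.1).

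The difference A minus Ex was taken within each replicate before the groups were compared. In the far band it was 0.54, 0.78 and 0.45 in mES and 1.48, 1.56 and 1.38 in MFL cells, and in the near band 0.22, 0.37 and 0.12 against -0.05, -0.14 and -0.10. A was more one-sided than Ex in both groups in the far band, and the gap was wider by 0.88 ± 0.11 in MFL cells (SE, n = 3 against 3, exact permutation test, p = 0.1). In the near band the gap changed sign, with a log2 difference of -0.33 ± 0.08 that was -0.57 with 5 kb left out around each viewpoint.

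**Figure D2:**
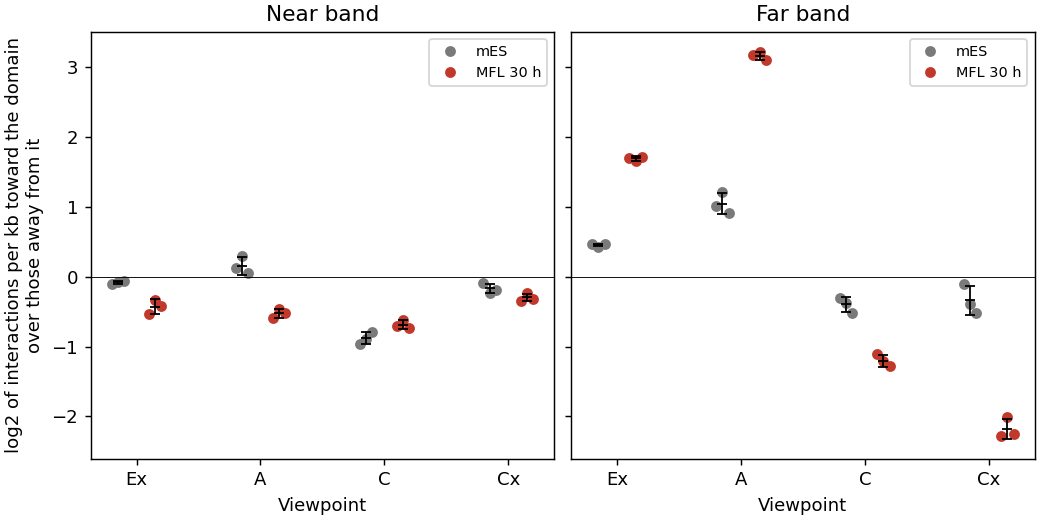
Log2 ratio of interactions per kb toward the domain to those away from it at the same distances, for Ex, A and the viewpoints C and Cx that lie farther downstream, in the near and the far band. Points are replicates and bars the mean ± SD of 3. In the far band Ex moved from 0.46 to 1.70 and A from 1.05 to 3.17 between mES and MFL cells. C, whose inward far band holds most of the domain, moved from -0.40 to -1.20, and Cx, likewise, from -0.34 to -2.18.

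The viewpoints C and Cx lie farther downstream, in introns of Sh3pxd2b, 53.9 and 79.1 kb from the domain edge, so that most of the domain falls in their far band. From C the far band ratio was -0.40 ± 0.11 (SD, n = 3) in mES and -1.20 ± 0.09 in MFL cells, and from Cx it was -0.34 ± 0.21 and -2.18 ± 0.15. For Ex and A the inward far band holds the flank beyond the domain, so the pairs are not compared over like sequence. From C the inward level was 59.6 interactions per kb in mES and 19.8 in MFL cells, and the outward level was 78.5 and 45.7. From Cx the inward level was 55.8 and 10.0, and the outward level was 70.1 and 45.4. Far band contacts of C and Cx were thus lower on both sides in MFL cells, more so toward the domain. In the near band the log2 ratio of C moved from -0.88 to -0.69 and that of Cx from -0.17 to -0.30.

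The viewpoint most like Ex is the HS39_5 fragment, 4.95 kb away and just inside the domain. It was captured from separate MFL 30 h libraries with other viewpoints, so the capture panel and the experiment cannot be told apart from the viewpoint. The band distances of Ex were applied from the centre of HS39_5. Its bands are therefore shifted by 4.95 kb from the domain and the opposite flank, and the comparison is not over wholly like sequence. After leaving out the surroundings of the viewpoints of both panels, the far band ratio was 1.62, 1.598 and 1.65 from Ex and 1.45, 1.48 and 1.59 from HS39_5 in 3 WT replicates. HS39_5 was lower in all replicates, by 0.12 ± 0.05 on the log2 scale (SE, exact permutation test, p = 0.1, adjusted p = 0.2). The near band ratio was -0.72 ± 0.15 (SD, n = 3) from Ex and -0.80 ± 0.14 from HS39_5, with overlap (exact permutation test, p = 0.5). Both comparisons depended on the margin left out. With 5 kb around each viewpoint the far band difference was -0.33, and in the near band HS39_5 was higher by 0.55. In a further set of 3 MFL 30 h replicates captured from HS39_5 and the α-globin promoters, the far band ratio was 1.49 ± 0.07.

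The sites that the labels give with coordinates were then examined one by one, each with 1 kb on either side, and the surroundings of the other viewpoints between 1 and 5 kb from them. Log2 differences of sites and of the gene bodies that follow were taken after adding 1. The most direct value is that between the edges themselves. From Ex, the surroundings of A had 822, 886 and 832 interactions in mES and 1500, 1625 and 1753 in MFL cells. From A, the surroundings of Ex had 729.6, 644 and 677 in mES and 1675, 1456 and 1873 in MFL cells. The contact between the edges was higher in every MFL replicate, with log2 differences of 0.94 ± 0.07 from Ex and 1.28 ± 0.12 from A (SE, n = 3 against 3, exact permutation test, p = 0.1, adjusted p = 0.118 over 20 site tests).

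C and Cx lie on the other side of A, away from the domain. From A, the surroundings of C, 49.3 kb away, had 697, 575 and 574 interactions in mES and 359.5, 353 and 342 in MFL cells. The surroundings of Cx, 74.6 kb away, had 308, 383 and 429 in mES and 107, 300.1 and 140 in MFL cells. Both were lower in every MFL replicate, and for Cx the highest MFL value lay close to the lowest mES value. With the first technical replicate only the groups overlapped for Cx from both viewpoints, and the log2 difference from A was -0.64 in place of -1.16. In mES cells the surroundings of Ex and of Cx, at like distances from A, had 684 ± 43.1 and 373 ± 61.2 interactions (SD, n = 3), and in MFL cells 1668 ± 209 and 183 ± 103. These are sums over 7.34 kb around Ex and 6.37 kb around Cx, not scaled per kb.

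CTCF sites at both edges were contacted more often in MFL cells, apart from CTCF +48 from A, whose groups overlapped. From Ex, the CTCF +44 site had 260.2, 248 and 251 interactions in mES and 588, 561 and 468 in MFL cells. From Ex, the CTCF +48 site had 306, 309.6 and 389 in mES and 908, 675 and 693 in MFL cells. From A, the HS39_5 site had 332, 296 and 354 in mES and 821, 654 and 914 in MFL cells. Every MFL value was above every mES value at these sites, each of which lies across the domain from the viewpoint. The log2 differences were 1.08 ± 0.10, 1.17 ± 0.18 and 1.27 ± 0.16 in that order (SE, n = 3 against 3). The 10 kb steps that hold these sites, and so include them, were higher by 1.23, 1.12 and 1.11 in the same order. The steps from 70 to 80 kb, which hold no labelled CTCF site, were higher by 1.03 from Ex and 1.28 from A. From Ex, the 2 kb bins from 32213000 and 32215000, also without such a site, were higher by 1.63 and 1.43. These 2 bins were picked after their values were seen. A rise was thus also seen away from the labelled CTCF sites, and whether the sites differ from their surroundings was not tested.

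CTCF sites on the viewpoint's own side changed less. From A, the CTCF +44 site had 780.3 ± 38.7 interactions in mES and 1158 ± 141 in MFL cells (SD, n = 3), a log2 difference of 0.56 ± 0.11 (SE) without overlap. It was 0.30 with the values as deposited and 0.38 with the first technical replicate only, and the groups overlapped under both. The CTCF +48 site had 911 ± 106 and 1010 ± 139 from A, which overlapped (exact permutation test, p = 0.5). From Ex, the HS39_5 site had 4151 ± 308 and 4752 ± 294, a log2 difference of 0.20 ± 0.08 that was -0.047 with the values as deposited.

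**Figure D3:**
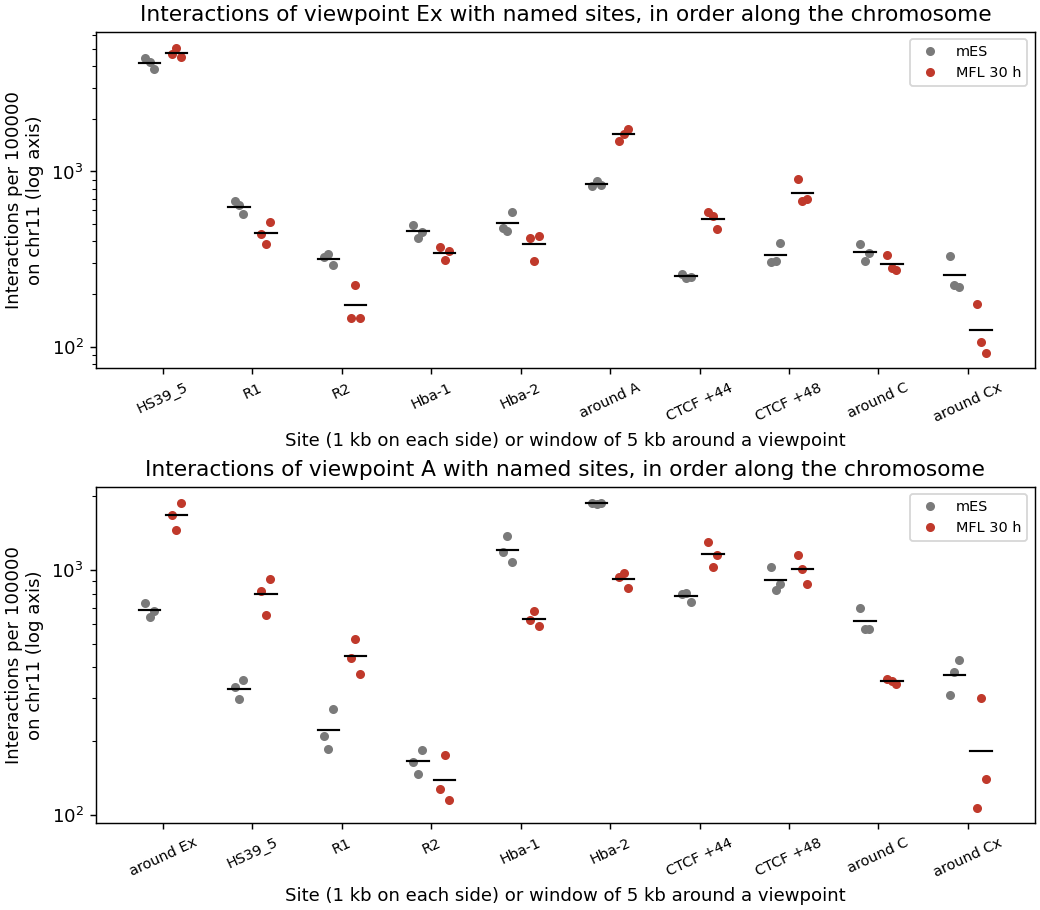
Interactions per 100000 on chromosome 11 of Ex (upper panel) and A (lower panel) with each named site or viewpoint surrounding, on a log axis, in order along the chromosome. Points are replicates and horizontal bars the means of 3. From Ex, the surroundings of A moved from 847 to 1626 and R2 from 320 to 173, and from A, the surroundings of Ex moved from 684 to 1668 and Hba-2 from 1868 to 916.

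The enhancers and the α-globin promoters lie between the edges. MCS-R1 and MCS-R2 (R1 and R2) are enhancers in introns of Nprl3, and Hba-1 and Hba-2 are the fragments at the promoters of the adult α-globin genes Hba-a1 and Hba-a2. From Ex, R1 had 675, 642 and 576 interactions in mES and 441, 384 and 518 in MFL cells, and R2 had 326, 338 and 295 against 146, 226 and 147. From A, Hba-1 had 1180, 1367 and 1078 in mES and 624, 679.8 and 587 in MFL cells, and Hba-2 had 1881, 1850 and 1873 against 934, 967 and 846. Each of these was lower in every MFL replicate, so each edge contacted the nearer of both kinds of element less often in MFL cells.

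At the elements nearer to the other edge the viewpoints differed. From A, R1 had 209, 186 and 271 interactions in mES and 435, 521 and 376 in MFL cells, higher by 1.00 ± 0.21 on the log2 scale (SE, n = 3 against 3), while R2 had 165 ± 18.4 and 139 ± 32.4 (SD, n = 3) with overlap. From Ex, Hba-1 had 456 ± 38.1 and 344 ± 29.5, and Hba-2 had 506 ± 69.1 and 387 ± 67.1, both without overlap and lower in MFL cells. With the first technical replicate only the groups overlapped at both, with log2 differences of -0.066 and -0.16 in place of -0.40 and -0.39. The same choice changed the difference at R1 from -0.50 to -1.12 from Ex and from 1.00 to 0.59 from A, without overlap. R1 lies 8.88 kb inside the upstream edge and R2 14.4 kb.

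Genes of the window were compared by their interactions per kb of gene body, for the 13 protein-coding genes that lie mostly within it. From A, 5 genes were higher in all MFL replicates and 6 lower, and from Ex 4 were higher and 4 lower. The 4 higher from Ex were Il9r, Rhbdf1, Snrnp25 and Hbq1b, with log2 differences of 0.15, 0.11, 0.38 and 0.39. These were -0.089, -0.13, 0.13 and 0.15 with the values as deposited, and all 4 overlapped. Over all gene bodies of chromosome 11 with enough interactions, 25% were higher without overlap and 8.6% lower from Ex, and 28.5% and 12.4% from A. Genes vary in length and in distance, and the counts in the window are read against these shares only as a description.

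From A, the genes of the upstream flank other than Il9r were higher in every MFL replicate, while Nsg2, farther upstream, was lower. Mpg had 99.8, 84.3 and 74.8 interactions per kb in mES and 202, 206 and 237 in MFL cells, a log2 difference of 1.31 ± 0.14 (SE, n = 3 against 3). Rhbdf1, which encodes a rhomboid-like protein without protease activity, had 112, 129 and 114 against 216, 287 and 258, and Snrnp25, which encodes a protein of the minor spliceosome, had 113, 111 and 116 against 187, 256 and 226. These 3 genes lie within the upstream flank and showed no overlap between the groups. Il9r, the interleukin 9 receptor gene farther upstream in that flank, had 106 ± 3.44 and 127 ± 25.4 (SD, n = 3) and overlapped.

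Nprl3 runs from the upstream flank into the domain, and its body holds the HS39_5 site, R1 and R2. From A it had 128, 120 and 113 interactions per kb in mES and 176, 182 and 170.3 in MFL cells, a log2 difference of 0.54 ± 0.06 that was 0.28 with the values as deposited. From Ex, which lies within it, it had 758 ± 31.7 and 717 ± 22.4 (SD, n = 3), with overlap. From Ex, Mpg, next to the viewpoint, had 2326 ± 115 and 2173 ± 40.7 interactions per kb, whose separation was lost with the first technical replicate only, and Snrnp25 had 361 ± 24.2 and 473 ± 83.3.

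The α-like globin genes differed among themselves in how often A contacted them. Hba-x, the embryonic ζ-globin gene, had 316, 341 and 225 interactions per kb in mES and 105, 147 and 119 in MFL cells. Hba-a1 had 771, 811 and 690.3 against 321, 359.5 and 391, and Hba-a2 had 776, 857 and 738 against 339, 293 and 394. These 3 were lower in every MFL replicate, with log2 differences of -1.23 ± 0.23, -1.08 ± 0.11 and -1.22 ± 0.14 (SE, n = 3 against 3).

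The θ-globin genes did not share this. From A, Hbq1b had 904, 810 and 722 interactions per kb in mES and 1004, 991 and 945 in MFL cells, higher without overlap, and Hbq1a, at the downstream edge, had 1988 ± 411 and 2125 ± 247 (SD, n = 3) with overlap. With the values as deposited the log2 difference of Hbq1b was 0.00, and that of Hbq1a changed from 0.11 to -0.16. From Ex none of Hba-x, Hba-a1, Hba-a2 and Hbq1a separated the groups, and Hbq1b had 177 ± 20.9 and 235 ± 50.5. Hba-a1 and Hba-a2, and likewise Hbq1a and Hbq1b, are near-identical copies, so reads could be assigned to either copy and their single values are uncertain. The sequences around the starts of both θ-globin genes, shown because a motif match lies in each, are nearly the same.
before Hbq1b, chr11:32186891-32186990: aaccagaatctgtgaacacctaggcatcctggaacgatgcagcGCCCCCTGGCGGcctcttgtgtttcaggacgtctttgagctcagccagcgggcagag
before Hbq1a, chr11:32199996-32200095: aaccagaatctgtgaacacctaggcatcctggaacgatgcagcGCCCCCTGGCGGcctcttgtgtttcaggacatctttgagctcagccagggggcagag

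Genes far from the domain were lower in MFL cells from both viewpoints. Sh3pxd2b, which encodes an adaptor protein of podosomes, had 58.9, 55.0 and 63.7 interactions per kb from A in mES and 25.5, 27.4 and 29.7 in MFL cells, and 33.2 ± 2.46 against 18.7 ± 1.80 from Ex (SD, n = 3). Nsg2, a neuronal gene at the upstream end of the window, had 21.7 ± 2.46 and 7.55 ± 2.30 from A and 22.9 ± 1.28 and 8.77 ± 2.43 from Ex. Ubtd2, at the downstream end, had 35.8 ± 0.36 and 18.9 ± 1.199 from A. None of these MFL values overlapped those of mES cells (exact permutation test, p = 0.1, adjusted p = 0.137 over 26 gene tests).

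**Figure D4:**
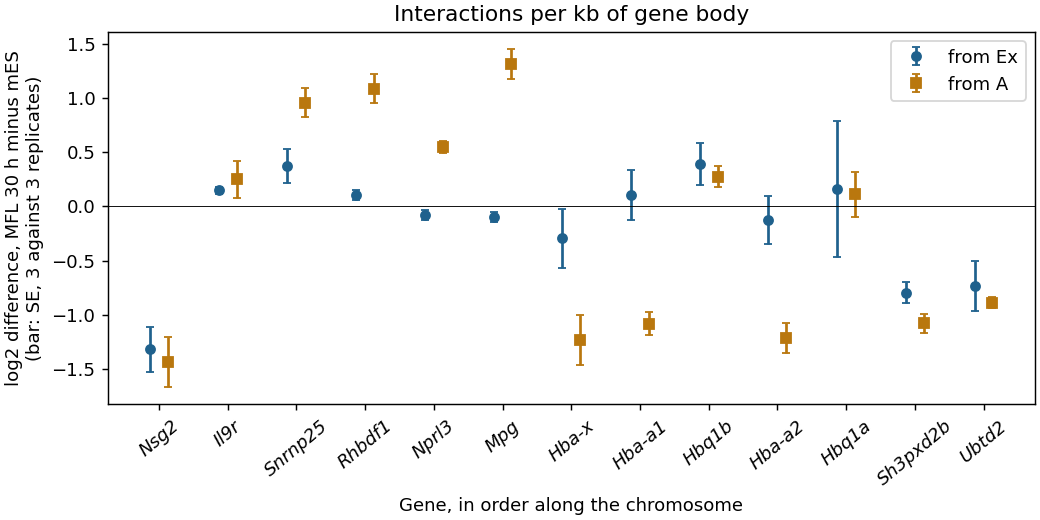
Log2 difference (MFL 30 h minus mES) of interactions per kb of gene body from Ex (circles) and A (squares) for the 13 genes in order along the chromosome, with bars for the SE of 3 against 3 replicates. From A, Mpg lies at 1.31 and Hba-a2 at -1.22, and from Ex both lie closer to 0, at -0.10 and -0.12.

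Single fragments of the opposite flank were then examined. From Ex, the 5 fragments of the downstream flank with the highest MFL mean lay 76.5 to 85.0 kb away, all intergenic, between A and the CTCF +44 site. The fragment chr11:32209597-32209828, printed above, had 85.6, 112 and 65.8 interactions in mES and 143, 278 and 173 in MFL cells. The fragment chr11:32214355-32215332 had 37.9, 25.1 and 80.5 in mES and 225, 205 and 132 in MFL cells. All MFL values of the 5 lay above the mES values, but these fragments were chosen by their MFL mean, so this is a description.

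From A, the 5 corresponding fragments of the upstream flank lay 68.5 to 88.7 kb away, in exons or introns of Nprl3, Mpg and Rhbdf1. The fragment chr11:32118069-32118743 in an intron of Rhbdf1 had 87.1, 81.8 and 55.9 interactions in mES and 181, 184 and 211 in MFL cells. The fragment chr11:32136425-32137129, which ends next to the HS39_5 fragment and includes the last A contact printed above, had 47.6, 39.04 and 57.1 against 234, 110.2 and 140.3. The fragment chr11:32124427-32126076, with the other printed match, had 63.9, 27.9 and 63.9 against 121, 325 and 136, so that 1 MFL replicate stood well above the others.

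Interactions with the opposite flank were spread over many fragments. From Ex, the 5 strongest fragments of the downstream flank held 9.30% of its interactions in mES and 11.96% in MFL cells, and from A, those of the upstream flank held 6.77% and 8.87%. Of the 129 fragments of the downstream flank, 37 were higher in all MFL replicates from Ex and 7 lower. Of the 148 of the upstream flank, 42 were higher from A and 6 lower. Over the fragments of chromosome 11 that passed the filter of a mean of at least 10, 8.13% were higher and 15.6% lower without overlap from Ex, and 8.47% and 20.5% from A. These shares are largely those of the window, which holds 699 of the 959 such fragments from Ex and 776 of the 1110 from A. It also holds 69 of the 78 higher ones from Ex and 89 of the 94 from A. All flank fragments counted as higher or lower passed the filter, among 111 of the downstream and 137 of the upstream flank.

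In limma on log2 values after adding 1, fitted across chromosome 11, 699 members passed that filter from Ex and 776 from A. From Ex, 0 were higher and 3 lower in MFL cells at an adjusted p of 0.05 (34 and 68 at an unadjusted p under 0.05), where 0% and 0.521% of chromosome 11 fragments were called. From A, 0 were higher and 10 lower (38 and 114 unadjusted), with 0% and 1.35% over the chromosome. The 5 strongest fragments of the opposite flank from each viewpoint were not among them, with adjusted p values (limma) from 0.204 to 0.331.

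The members were also summed into bins of 2 kb, of which 228 had a mean of at least 10 from Ex and 231 from A. In limma across chromosome 11, 0 bins of the window were higher and 1 was lower from Ex (11 and 37 at an unadjusted p under 0.05), and 0 were higher and 3 lower from A (14 and 59 unadjusted). Over all bins tested on chromosome 11 the shares called were 0% and 0.404% from Ex and 0.249% and 2.49% from A. The bins called lay far from the domain and had 0 reads in every MFL replicate. From Ex, the bin at 31939000 to 31940999 in an intron of Nsg2 had 51.1, 23.7 and 22.1 interactions in mES (limma, adjusted p = 0.0114). From A, the bin at 32325000 to 32326999 in an exon of Sh3pxd2b had 37.2, 44.6 and 23.4 in mES (limma, adjusted p = 0.00259). From A, the intergenic bins at 31991000 to 31992999 and at 31973000 to 31974999 had means of 44.3 and 21.2 in mES (limma, adjusted p = 0.0240 and 0.0260). All 4 lie near or under what 3 reads amount to in MFL libraries, so no fold is given and a difference of this size was at the limit of the depth.

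These calls depended on how the spread was estimated. When limma let the spread depend on the level, 15 bins of the window were higher and 13 lower from Ex, and 21 and 31 from A, against 2.02% and 2.83% of chromosome 11 bins from Ex and 2.74% and 6.48% from A. With edgeR's quasi-likelihood test on the recovered reads, which left out mES replicate 1 from A and the first technical replicate of MFL replicate 2 from Ex, 21 were higher and 27 lower from Ex, and 29 and 32 from A, against 4.31% and 7.55%, and 7.35% in each direction. Without overlap were 27 and 65 from Ex (5.93% and 24.4% over the chromosome) and 36 and 93 from A (6.6% and 28.9%). The median log2 difference was -0.56 over the 228 bins from Ex and -0.79 over the 231 from A, and -0.66 and -0.95 over all bins tested on chromosome 11. With the values as deposited the medians over chromosome 11 were -0.88 and -1.27, and the medians also moved with the filter. With a mean of at least 50 they were -0.32 and -0.50, and with no filter -0.42 and -0.37, at the difference in depth given above.

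Of the 228 window bins from Ex, 14 were higher and 12 lower with both of these tools, and of the 231 from A 21 and 22. A share over chromosome 11 was not taken for both tools together. For limma with a trend alone it was 2.02% higher and 2.83% lower from Ex, and 2.74% and 6.48% from A. The counts by interval that follow rest on the same values as the interval shares above, so they are not separate evidence. From Ex, 11 of the 30 bins of the downstream flank were higher and 0 lower, 2 of the 31 of the domain were higher and 8 lower, and 1 of the 31 of the upstream flank was higher. From A, 12 of the 31 of the upstream flank were higher and 0 lower, 3 of the 31 of the domain were higher and 10 lower, and 6 of the 30 of the downstream flank were higher. In the far intervals 4 bins were lower from Ex and 12 from A, and 0 were higher.

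The bins named next are examples from those that passed with both tools, and were picked after their values were seen. From Ex, the bin at 32215000 to 32216999 had 244, 194 and 229 interactions in mES and 612, 625 and 561 in MFL cells (adjusted p = 0.000227 in limma with a trend and 2.91e-07 in edgeR). Its neighbour at 32217000 to 32218999 had 339, 347 and 375.5 against 786, 808 and 824 (adjusted p = 0.000227 and 4.33e-08). The bin at 32161000 to 32162999 in Nprl3 had 763, 842 and 664 against 188, 354 and 285 (adjusted p = 0.000285 and 2.47e-07 in the same tools). The first and second lie between A and CTCF +44 and the third inside the domain, and none of these 3 passed in limma without the trend (adjusted p = 0.200 for each).

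From A, the bins at 32137000 to 32140999, which hold the HS39_5 site, were higher in MFL cells. The first of them had 326, 222 and 286 interactions in mES and 644, 737 and 786 in MFL cells, and the second 351, 298 and 299.9 against 639.8, 810.4 and 725. Both passed with a trend in limma (adjusted p = 0.00117 and 0.00146). The bin at 32195000 to 32196999 over Hba-a2 had 1291, 1279.8 and 1276 against 680.2, 672 and 534, and the bin at 32183000 to 32184999 over Hba-a1 had 1196, 1286 and 1088 against 559, 648 and 579 (adjusted p = 0.000961 for both in limma with a trend). The bin at 32197000 to 32198999 over Hba-a2 had 1686, 1811 and 1766 against 839.9, 1041 and 925 (adjusted p = 0.000947 in the same fit). In the upstream flank the bin at 32129000 to 32130999 in Mpg had 290.5, 229 and 237 against 589, 484 and 629 (adjusted p = 0.00465). The bin at 32295000 to 32296999 in Sh3pxd2b had 159, 161 and 120.2 against 34.8, 7.77 and 14.8, the MFL values again at or under the level of 3 reads. None of these bins from A passed in limma without the trend (adjusted p from 0.0716 to 0.213).

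**Figure D5:**
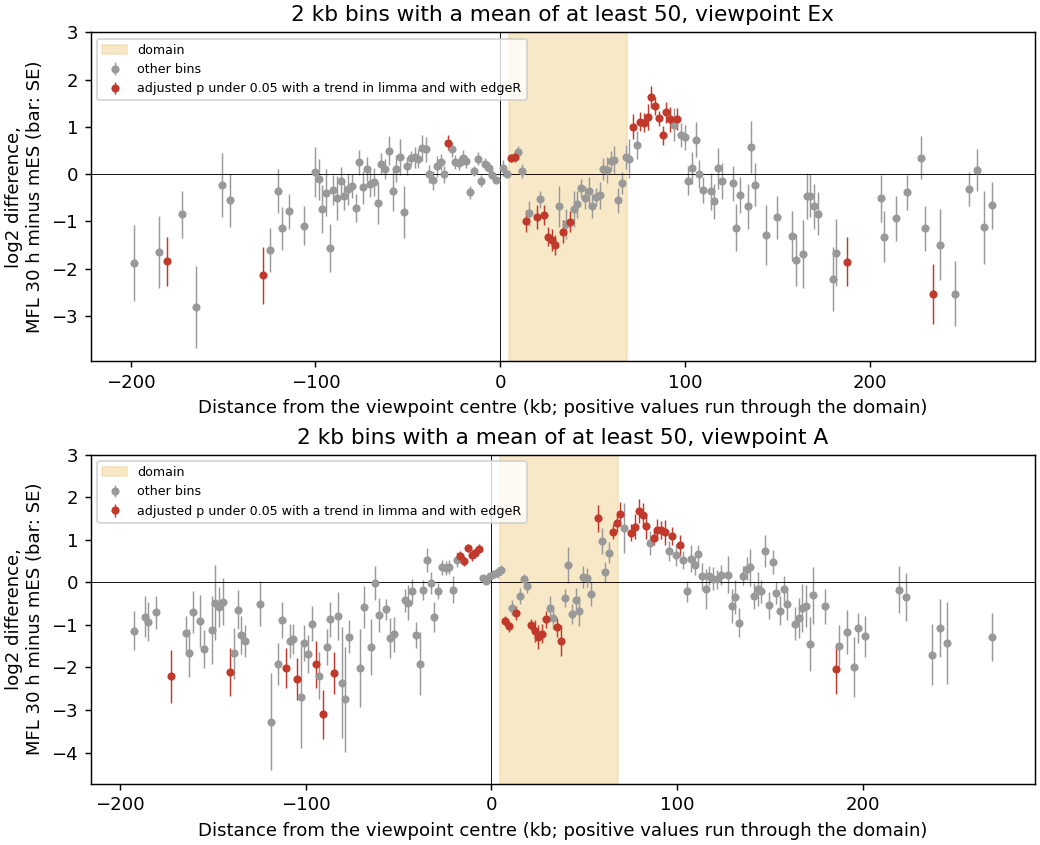
Log2 difference (MFL 30 h minus mES) with its SE of 2 kb bins with a mean of at least 50, against the distance from the viewpoint centre in kb, for Ex (upper panel) and A (lower panel), where the orange band is the domain. Red bins passed an adjusted p of 0.05 in both limma with a trend and edgeR. The 11 red bins of the opposite flank from Ex and the 12 from A lie above 0, 8 and 10 red bins inside the domain lie below it, and the red domain bins above 0 lie near its upstream edge.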

How the data were processed

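NG Capture-C libraries were made by the authors with DpnII and a double oligonucleotide capture, and reporter reads were counted on mm9 fragments with their own scripts (Trim Galore and Bowtie per the submitters' processing notes, versions not given in the sources used here). The values deposited by the authors resemble RPM, but are reads per 100000 over all chromosomes for each viewpoint. In every column 100% of values were whole reads to within 0.1 read, but in some columns rounding could imitate this. For edgeR those columns were left out, which took mES replicate 1 from A and the first technical replicate of MFL replicate 2 from Ex, and the reads of technical replicates were added. Otherwise fragments within 1 kb of the 5 viewpoints were left out, values were scaled to 100000 on chromosome 11, and technical replicates were averaged. The labels do not say how technical replicates were made. P-values measure the spread between these samples, which may be partly technical, and floors of 3 reads cover counting error only.

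Shares, ratios, sites and genes (GENCODE vM1) were tested with two-sided exact permutations, and bins and fragments with limma 3.58.1 (R 4.3.3) on log2(value + 1), adjusted by Benjamini-Hochberg over all features of chromosome 11 with a mean of at least 10 and a threshold of 0.05. edgeR 4.0.16 was an alternative. The fits were also run on simulated bins with planted changes. Their spread was set and not estimated from these samples, so that run checks the code and not the calls made here. Named were the labelled sites, the 13 genes, up to 5 bins per viewpoint and direction that passed in limma without a trend and did not overlap, in order of adjusted p (1 from Ex, 3 from A), and the 5 fragments of the opposite flank with the highest MFL mean. Bins named from limma with a trend and edgeR are examples picked after their values were seen. Members and lists were chosen with earlier results of these data known. The alternatives were another pseudocount, filter, bin size, scaling, margin or set of bins in the fit, a trend, a replicate block, single technical replicates and leaving out each replicate.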

Additional observations from a re-analysis of the deposited data

How the results depend on the processing

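All interval shares, far and near band ratios and differences between A and Ex kept their direction, though not all kept the groups apart or their size, under every alternative run for them, except the upstream flank from Ex, whose log2 difference was -0.16 with the values as deposited. HS39_5 minus Ex in the near band was 0.55 with 5 kb left out. With the values as deposited the log2 difference was -0.047 for HS39_5 from Ex and -0.12 for CTCF +48 from A (-0.014 with the first technical replicate only). For gene bodies it was -0.089 for Il9r, -0.13 for Rhbdf1, -0.15 for Hba-a1 and -0.082 for Hbq1a from Ex, and -0.016 for Il9r and -0.16 for Hbq1a from A. With the first technical replicate only it was -0.017 for Il9r and 0.12 for Hba-a2 from Ex. The second technical replicate only, chosen after seeing the data, turned no direction of a share or ratio, but the groups overlapped for the domain share from Ex. The causes were not tested, but the first scaling includes reads on other chromosomes, whose share was higher in MFL cells.

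The counts of bins higher and lower in MFL cells, 0 and 1 from Ex and 0 and 3 from A, moved most. They were 11 and 10 from Ex and 17 and 36 from A with a mean of at least 50, 8 and 7 and 16 and 50 with window bins only in the fit, 15 and 13 and 21 and 31 with a trend, and 21 and 27 and 29 and 32 in edgeR. The lower count from Ex was 0 with a pseudocount of 5, with no filter and in bins of 5 kb, and 5 with the first technical replicate only. From A it was 6 with a pseudocount of 5, 1 with no filter, 0 in bins of 5 kb, 5 with the first technical replicate only and 11 with the values as deposited. For fragments, 0 and 3 from Ex and 0 and 10 from A, the higher count with a mean of at least 50 was 4 from Ex and 17 from A. The lower count from Ex was 1 with a pseudocount of 5 or no filter, 11 with the first technical replicate only and 15 scaled to the window, and from A 0, 34, 40 and 32 under a pseudocount of 5, no filter, the first technical replicate and the window.

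Same-numbered replicates did not deviate together from their group means (correlations over bins from -0.06 to 0.09), so the numbers were not taken to pair the samples. With the replicate number as a block the lower counts of bins and of fragments were 0 from both viewpoints (bins 16 and 33 at an unadjusted p under 0.05). The block cannot change the far band differences of 1.24 and 2.12, only their p. Their adjusted p was 0.25 in a sign-flip test within replicate numbers, against 0.1 in the exact permutation test without the block.

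Leaving out 1 replicate gave far band differences from 1.23 to 1.26 from Ex and 2.06 to 2.20 from A, and near band differences from -0.40 to -0.29 and -0.73 to -0.61. Over the same settings the lower count of bins ran from 0 to 3 from Ex and 1 to 9 from A, and that of fragments from 1 to 11 and 0 to 32. The call from Ex was lost without mES replicate 2 or 3, and the calls from A at 31991000 and 31973000 were lost without mES replicate 2 or MFL replicate 1. In MFL cells the depth limits any value near 3 reads.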
